A study of Mus musculus with 13 samples.

Results

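The effect of a circular RNA vector on the microglia of 5xFAD mice was examined by comparing 4 libraries from animals given the circRNA vector with 2 libraries from animals given an EGFP vector, 6 of the 13 samples of the series. The libraries were taken by their titles, and genes were kept where the mean over all 13 samples was at least 1 FPKM, which left 10817 of 19737 genes. Microglia are the resident macrophages of the brain. Both groups were 5xFAD mice, which carry human transgenes with familial Alzheimer's disease mutations and deposit amyloid in the brain. Both had also received AAV PHP.eB, a virus whose capsid was selected to carry genes from the blood into the brain. In the control group the virus carried EGFP, a green fluorescent protein. In the other group it carried circPOLR2A, named after the gene of the largest subunit of RNA polymerase II. The treatment label of circRNA library 1 reads circPOLR2A(9,10), while libraries 2, 3 and 4 read (9,11), (9,12) and (9,13). The design text of the series gives (9,10) for all 4, so it is not settled whether they received the same construct. The labels give no age, sex, vector promoter or cell sorting gate, and they do not say whether a library came from 1 mouse or a pool. The p-values below therefore measure the spread between these samples. The other samples were 3 wild type libraries with the EGFP vector and 4 libraries of 5xFAD mice with PKR knockout, for which no vector is named. The title of the series names neurons as the cells to which double-stranded circular RNA was delivered, whereas the RNA measured here came from microglia.

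PKR, encoded by Eif2ak2, is a kinase that is switched on by double-stranded RNA and phosphorylates the translation factor eIF2alpha, which slows protein synthesis and favours translation of the stress factor ATF4. Circular RNAs with short double-stranded stretches are known to bind PKR and to hold it inactive. Double-stranded RNA is also read by the RIG-I-like receptors and the OAS enzymes, and these lead to type I interferon and the interferon-stimulated genes, Eif2ak2 among them. In microglia around amyloid plaques, disease-associated genes such as Apoe, Trem2 and Cst7 are known to be high.

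The 6 libraries held 45.3 to 55.0 M fragments as recovered from the FPKM steps, with 48.7 ± 3.80 M (SD, n = 4) for circRNA and 54.3 ± 1.01 M (SD, n = 2) for EGFP. A gene of 2 kb at 1 FPKM then had 90.5 to 110 fragments. In a principal component analysis of these 6 libraries the first component held 48.8% of the variance and placed circRNA libraries 2 and 3 at 17.3, apart from circRNA libraries 1 and 4 at -5.72 and -10.3 and from the EGFP libraries at -7.0 and -11.7. Microglial markers were present in all 6, with Cx3cr1, the fractalkine receptor, at 292 to 430 FPKM. RNA of other cells was also present: summed over their marker lists, neuron markers reached 60.2 to 148 FPKM, oligodendrocyte markers 686 to 1434, astrocyte markers 251 to 507, endothelial and mural markers 193 to 439, and blood cell markers 16.4 to 117, against 5802 to 8761 for 16 microglial markers. No marker was listed at 0 in all 6 libraries. The Y-linked gene Ddx3y was at 7.06 to 8.39 FPKM in all 6. Polr2a, the linear host gene named by the construct, was at 18.9 and 18.3 FPKM with EGFP and 20.2, 22.1, 21.8 and 19.4 with circRNA. That value counts the mouse gene, and no level of the delivered circle was measured here.

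No gene passed the test between circRNA and EGFP. In limma, fitted over all 13 libraries, 0 of 10817 genes had an adjusted p under 0.05 (0.00%), and the smallest adjusted p was 0.739. At an unadjusted p under 0.05 there were 523 genes (4.83%, where 5% is what a comparison without any difference gives), 491 of them higher with circRNA (4.54% of the genes tested) and 32 lower (0.296%). Groups did not overlap in 1801 genes that were higher (16.6%) and 287 that were lower (2.65%). In 8410 genes (77.7%) the difference was above 0, and the median over all genes was 0.08 on the log2(FPKM + 1) scale, the scale of every difference given here. For comparison, 1514 genes (14.0%) passed between 5xFAD EGFP and wild type EGFP with the same model. That contrast shares both EGFP libraries with the circRNA contrast, so an unusual EGFP value enters both, with opposite sign.

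The lean of the whole table toward higher values depended on the scaling. FPKM summed over all listed genes to 157400 ± 9465 (SD, n = 4) with circRNA and 145100 ± 8651 (SD, n = 2) with EGFP. The median of all genes was 0.003 under median-ratio scaling, -0.008 with each library rescaled to the same sum and 0.01 under quantile normalization, so a list median under these settings is read against about 0. The share of genes above 0 was 51.3% under median-ratio scaling, 46.4% with each library rescaled to the same sum and 55.6% under quantile normalization. The same settings gave 141 higher and 163 lower, 93 and 157, and 166 and 142 genes at an unadjusted p under 0.05, against 491 and 32 as deposited. For this reason each gene list below is given with its count of members higher, with its median beside the median of all genes (0.08), and with the number of members above that median. These counts describe the lists and are not tests. Single libraries also weighed heavily: the 523 genes became 93 without EGFP library 2, 219 without circRNA library 3 and 833 without circRNA library 4.

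**Figure D1:**
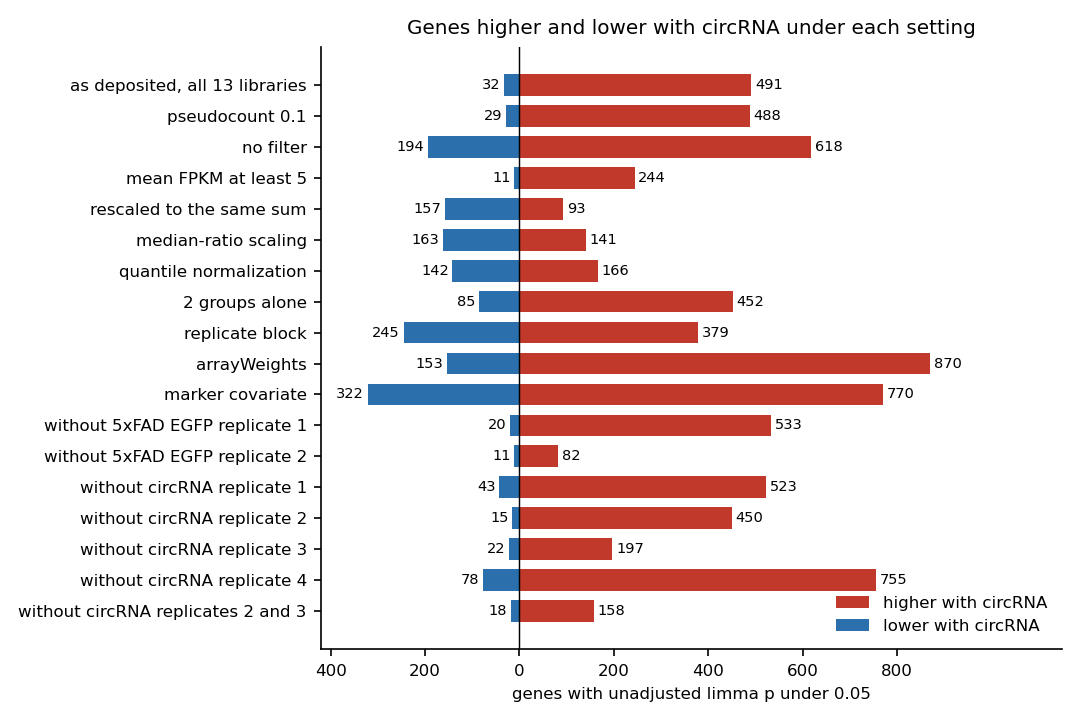
Number of genes with an unadjusted limma p under 0.05 in the circRNA minus EGFP comparison, by processing setting, with genes higher with circRNA to the right and lower to the left. The deposited values gave 491 higher and 32 lower, and the 3 rescaled settings gave 93 to 166 higher and 142 to 163 lower. Without EGFP library 2 the count was 82 higher and 11 lower.

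The interferon-stimulated genes were higher with circRNA, and more so than the table as a whole. All 53 tested members were higher with circRNA, 51 of them by more than the median of all genes, and the list median was 0.29. At an unadjusted p under 0.05 there were 17 higher (the share of all genes was 4.54%) and 0 lower, and 21 members (39.6%) did not overlap between groups, against 16.6% of all genes. The mean log2 level of the list was 2.85 and 2.65 in EGFP libraries 1 and 2 and 2.86, 3.04, 3.26 and 3.08 in circRNA libraries 1 to 4. All 4 circRNA values thus lay above both EGFP values, but circRNA library 1 and EGFP library 1 were nearly level. Under the 3 rescaled settings 52 of 53 members remained higher, with medians of 0.18 to 0.20, and the median was 0.17 without EGFP library 2 and 0.21 without circRNA library 3. Without both circRNA libraries 2 and 3 it was 0.19, with 52 of 53 higher. The levels of endothelial markers and of the whole interferon list were both highest in circRNA library 3 and lowest in EGFP library 2, and the part of blood vessel RNA in these differences was not tested.

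Promoter sequences are shown here for 4 interferon-stimulated genes because all tested members of their list were higher and the best known control element of such genes lies close to the start site. Each runs from 250 bases before to 50 bases after the start site on the gene's strand, from RefSeq on GRCm38.p6. Capitals mark matches to GAAANNGAA, the core of the interferon-stimulated response element, on either strand, with overlapping matches joined. Gbp2 lies at chr3:142620413-142620712 on the plus strand, Gbp3 at chr3:142559794-142560093 on the plus strand, Igtp at chr11:58199306-58199605 on the plus strand and Isg15 at chr4:156200769-156201068 on the minus strand.
Gbp2: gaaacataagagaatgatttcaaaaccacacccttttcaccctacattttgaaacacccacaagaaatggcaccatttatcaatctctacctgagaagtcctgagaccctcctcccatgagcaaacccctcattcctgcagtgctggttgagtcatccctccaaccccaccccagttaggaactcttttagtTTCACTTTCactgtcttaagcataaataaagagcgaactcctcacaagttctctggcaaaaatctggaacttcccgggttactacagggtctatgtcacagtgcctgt
Gbp3: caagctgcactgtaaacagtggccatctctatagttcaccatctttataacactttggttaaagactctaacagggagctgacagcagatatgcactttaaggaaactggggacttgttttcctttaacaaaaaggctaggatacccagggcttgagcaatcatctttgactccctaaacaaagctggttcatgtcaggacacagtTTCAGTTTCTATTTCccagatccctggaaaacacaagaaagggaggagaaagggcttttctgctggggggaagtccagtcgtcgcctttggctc
Igtp: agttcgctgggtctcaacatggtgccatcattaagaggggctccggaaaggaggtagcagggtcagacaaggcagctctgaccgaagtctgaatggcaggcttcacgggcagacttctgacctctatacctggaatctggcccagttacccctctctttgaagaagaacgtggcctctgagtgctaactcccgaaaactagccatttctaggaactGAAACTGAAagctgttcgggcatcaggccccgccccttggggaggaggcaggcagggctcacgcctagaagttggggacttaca
Isg15: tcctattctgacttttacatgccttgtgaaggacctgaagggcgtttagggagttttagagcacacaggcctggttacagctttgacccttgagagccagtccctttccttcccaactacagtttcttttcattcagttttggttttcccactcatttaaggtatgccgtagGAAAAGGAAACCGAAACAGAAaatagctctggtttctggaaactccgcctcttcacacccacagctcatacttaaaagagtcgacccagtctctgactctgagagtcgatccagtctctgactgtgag
The match in Gbp2 begins 58 bases before the start site, that in Igtp 34 bases before it, the 2 in Gbp3 at 44 and 38 bases and the 3 overlapping matches in Isg15 at 78, 72 and 66 bases before it. Of the 53 genes, 43 had a promoter in the RefSeq table, and 24 of these 43 (55.8%) held a match, against 8.72% of 8567 tested genes with a promoter. By promoter, 26 of 52 held it, against 8.56% of all 32851 promoters. The motif TTCNNNGAA, the core of the gamma-activated sequence of such genes, stood in 15.4% of the list's promoters and in 8.30% of all, again counting both strands. A match is a run of letters and not evidence of binding. Igtp was chosen for display after its values were seen.

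Gbp2 (chr3:142620602-142638008, GRCm38), a guanylate-binding protein induced by interferon gamma, had the largest difference among the genes higher with circRNA that met the rule for named genes. It was at 3.44 and 2.43 FPKM in the EGFP libraries and at 4.57, 7.03, 9.86 and 7.27 FPKM in circRNA libraries 1 to 4. Every circRNA library was above both controls, with library 3 highest and library 1 closest to them. The difference was 1.03 (SE 0.27), with an unadjusted p of 0.00255 and a limma adjusted p of 0.739. Wild type libraries were at 3.59, 2.63 and 3.97 FPKM, so 2 of the 3 lay just above the EGFP controls and all 3 below the lowest circRNA library. Its neighbour Gbp3 (chr3:142560026-142573209) was at 1.98 and 2.15 FPKM with EGFP and 2.75, 3.22, 4.37 and 4.06 with circRNA, a difference of 0.57 (SE 0.14). For Gbp3 the wild type libraries were at 4.53, 3.21 and 3.68 FPKM, within or above the circRNA range, and 5xFAD EGFP differed from wild type by -0.64 (limma adjusted p 0.0136).

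Igtp, Tgtp1 and Tgtp2, GTPases of the IRG family, which acts against vacuolar pathogens, were among the larger differences as well. Tgtp1 and Tgtp2 were among the 8 genes named for the largest increases, and Igtp was named after its values were seen. They do not stand for the family, of which no list was made, and each had a limma adjusted p of 0.739. Igtp was at 7.19 and 6.14 FPKM with EGFP and 8.0, 9.37, 12.5 and 10.2 with circRNA. Tgtp1 and Tgtp2 differed by 0.66 (SE 0.19) and 0.72 (SE 0.22), at 0.710 to 1.43 FPKM with EGFP and 1.35 to 3.10 with circRNA. These neighbours on chromosome 11 are near-identical, and their values are uncertain where reads could be split between them.

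Isg15, a ubiquitin-like protein attached to other proteins after interferon, was at 3.04 and 2.25 FPKM against 3.18, 4.10, 5.51 and 3.70, a difference of 0.48 (SE 0.16). Oasl2, a double-stranded RNA-binding relative of the OAS enzymes, was at 4.18 and 3.13 against 4.50, 4.62, 7.01 and 5.48 FPKM. In both genes the groups did not overlap, and circRNA library 1 was the lowest of its group and exceeded the higher control by less than 1 FPKM.

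Other classical members overlapped between groups. Ifit3, which binds foreign RNA, was at 10.6 and 6.64 FPKM with EGFP and 9.92, 9.14, 14.8 and 12.7 with circRNA, so that circRNA libraries 1 and 2 lay between the controls. Irf7, the factor that amplifies interferon production, was at 2.70 and 1.86 against 2.19, 2.80, 4.6 and 3.34 FPKM. Their differences were 0.40 (SE 0.23) and 0.35 (SE 0.19). In the contrast of 5xFAD EGFP with wild type, which shares the controls, the list median was 0.31, with 46 of 53 genes higher and 18 called higher and 2 lower, against 14.0% of all genes called.

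**Figure D2:**
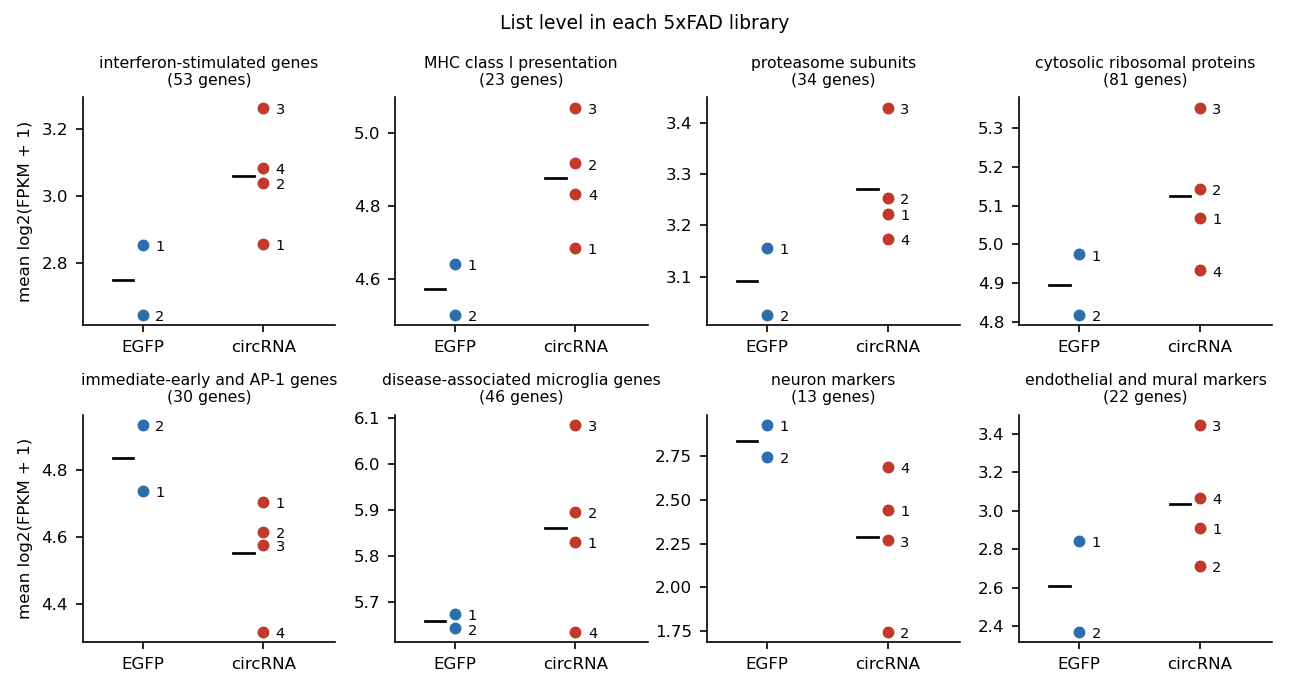
Mean log2(FPKM + 1) of 8 gene lists in each 5xFAD library, with EGFP in blue, circRNA in red, replicate numbers beside the points and group means as black bars. The interferon and MHC class I lists were highest in circRNA library 3, the immediate-early list was lower in all 4 circRNA libraries than in both controls, and the neuron markers were lowest in circRNA library 2.

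Genes of MHC class I presentation, which carry peptides from inside the cell to its surface, were also higher. All 23 tested members were above 0 and above the median of all genes, with a list median of 0.29, 6 higher (the share of all genes was 4.54%) and 0 lower at an unadjusted p under 0.05, and 9 (39.1%, against 16.6% of all genes) without overlap. The list level was 4.64 and 4.50 with EGFP and 4.68, 4.92, 5.07 and 4.83 with circRNA, again with library 1 close to the higher control. All 23 remained higher under the 3 rescaled settings and without both circRNA libraries 2 and 3, where the median was 0.17. Tap1, a subunit of the pump that moves peptides into the endoplasmic reticulum, was at 7.35 and 7.14 FPKM against 8.14, 9.23, 10.5 and 9.85, a difference of 0.33 (SE 0.12). Nlrc5, the transactivator of class I genes and also a member of the interferon list, was at 4.83 and 4.49 against 5.01, 6.94, 6.92 and 7.79 FPKM, a difference of 0.42 (SE 0.15). H2-K1, a classical class I heavy chain, was at 106 and 96.1 against 104, 129, 138 and 125 FPKM, and circRNA library 1 lay between the controls. Heavy chain genes resemble each other, and their values are uncertain where reads could be shared.

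MHC class II presentation, the route by which macrophages show peptides to helper T cells, gave the same sign with more spread. The SD of the list level over the circRNA libraries was 0.21, against 0.16 for class I. All 13 tested genes were higher, 11 of them above the median of all genes, with a median of 0.28, 0 had an unadjusted p under 0.05, and 1 (7.69%, against 16.6% of all genes) was higher without overlap. Cd74, the invariant chain of class II, was at 295 and 244 FPKM with EGFP and 239, 454, 290 and 460 with circRNA. H2-Ab1, a class II beta chain, was at 38.1 and 32.6 against 36.0, 64.6, 40.4 and 69.0 FPKM. Libraries 2 and 4 were high in both genes and libraries 1 and 3 were near the controls, a split within the circRNA group that was larger than the distance between groups. The intervals were wide, from -0.15 to 1.16 for H2-Ab1 and from -0.30 to 1.04 for Cd74. H2-DMb1, a subunit of the peptide loader H2-DM, was at 17.4 and 18.7 against 19.7, 25.1, 26.6 and 21.6 FPKM without overlap, a difference of 0.34 (SE 0.17).

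The sensors of cytosolic RNA and DNA had a median close to that of all genes. Of 34 tested sensors and adaptors, 32 were higher, with a median of 0.11, and 22 were above the median of all genes. At an unadjusted p under 0.05 there were 3 higher (the share of all genes was 4.54%) and 0 lower, and 9 (26.5%, against 16.6% of all genes) were higher without overlap. Under rescaling to the same sum 18 of 34 were higher and under median-ratio scaling 21, and without both circRNA libraries 2 and 3 the median was 0.03, under the 0.05 of all genes in that setting. The list median ran from 0.01 to 0.17 over the 17 alternatives. Oas1a, which makes the second messenger that activates RNase L after binding double-stranded RNA, was at 5.61 and 4.70 FPKM with EGFP and 6.0, 6.95, 8.83 and 8.05 with circRNA. Ifih1, which encodes the long double-stranded RNA sensor MDA5, was at 4.30 and 3.84 against 4.38, 4.8, 5.71 and 5.28 FPKM. Both are themselves induced by interferon, and in both all 4 circRNA libraries were above the controls, library 1 only slightly. Their differences were 0.45 (SE 0.15) and 0.25 (SE 0.10).

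Eif2ak2 (chr17:78852564-78882573), which encodes PKR, was at 6.49 and 6.59 FPKM with EGFP and 7.37, 7.48, 7.73 and 8.11 with circRNA. As deposited, the 2 groups were tight and did not overlap. With median-ratio scaling circRNA library 3 fell below EGFP library 2. With each library rescaled to the same sum, circRNA libraries 1 and 3 fell below EGFP library 2. The difference was 0.20 (SE 0.11, 95% interval -0.04 to 0.45) with an unadjusted p of 0.0996. These are RNA levels, and the activity of the kinase was not measured.

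Among the eIF2alpha kinases, phosphatases and eIF2 subunits, 17 of 18 genes were higher and 14 above the median of all genes, with a list median of 0.17. At an unadjusted p under 0.05 there were 4 higher (the share of all genes was 4.54%) and 0 lower, and 7 (38.9%, against 16.6% of all genes) were higher without overlap. Eif2s1, which encodes eIF2alpha, the substrate of PKR, was at 3.29 and 3.31 FPKM against 3.95, 4.08, 4.53 and 3.75, and it was named after its values were seen. Eif2s2, the beta subunit, was at 3.47 and 2.93 against 4.35, 3.80, 4.34 and 3.72 FPKM. Eif2b2, a subunit of the exchange factor that reloads eIF2 with GTP, was at 4.27 and 4.63 against 5.34, 4.97, 6.06 and 5.08 FPKM. In these 3 genes every circRNA library was above both controls, by 0.22 to 0.27 in the fitted difference. The exception was Ppp1r15a, which encodes GADD34, the inducible subunit of the phosphatase that removes the PKR mark from eIF2alpha. It was at 13.4 and 17.2 FPKM with EGFP and 13.6, 11.8, 11.4 and 10.7 with circRNA, a difference of -0.33 (SE 0.16). The list median was 0.07 to 0.08 under the 3 rescaled settings, against -0.008 to 0.01 for all genes, with 12 to 14 of 18 higher. It was 0.10 without circRNA library 3 and 0.11 without EGFP library 2.

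**Figure D3:**
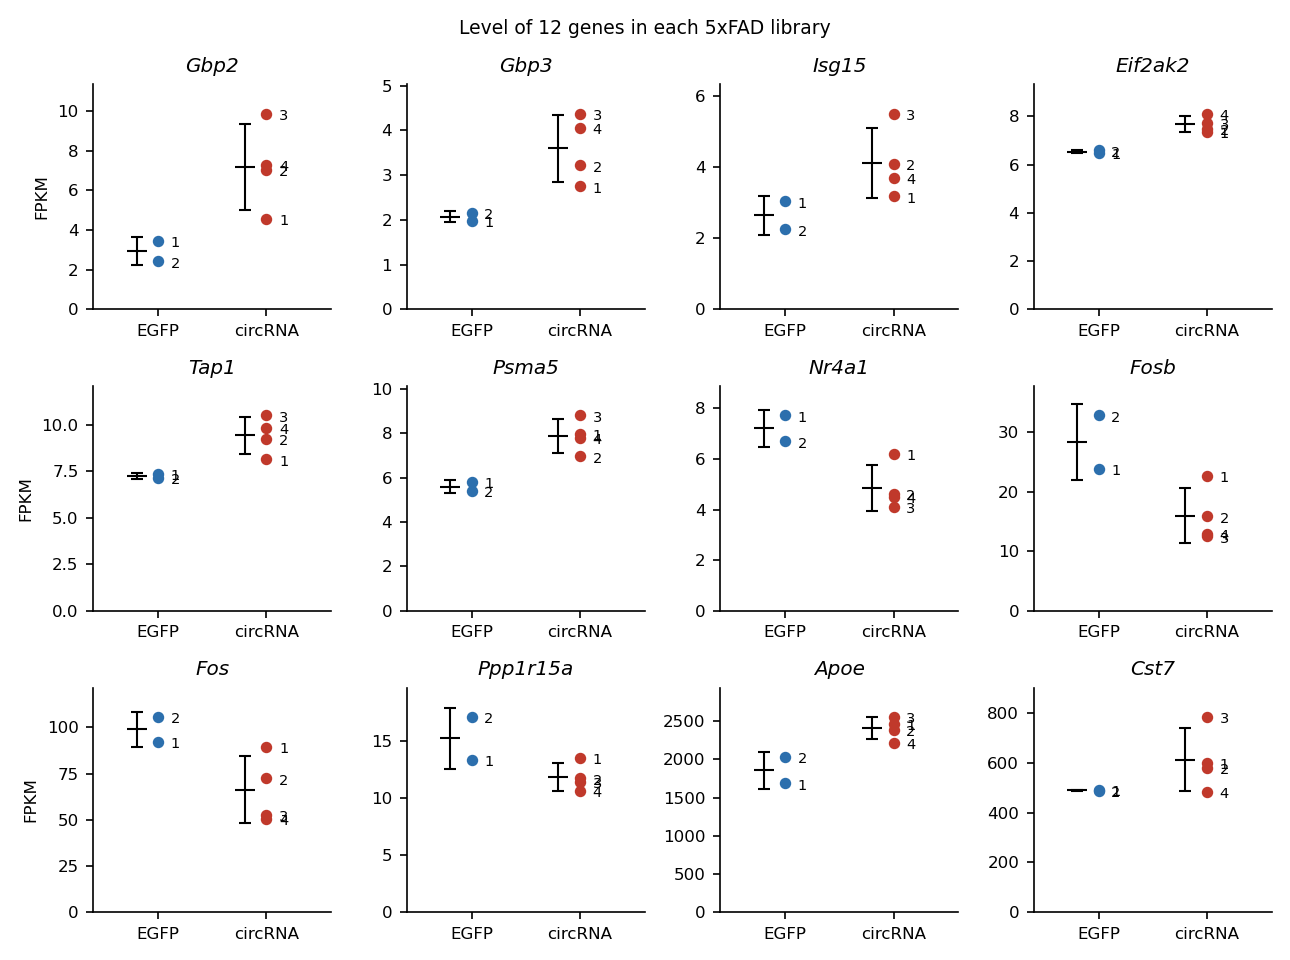
FPKM of 12 genes in each 5xFAD library, EGFP in blue and circRNA in red, with replicate numbers beside the points and the mean ± SD of each group in black. Gbp2, Gbp3, Isg15, Eif2ak2, Tap1, Psma5 and Apoe were higher in every circRNA library than in both controls, and Nr4a1, Fosb and Fos were lower, whereas Ppp1r15a and Cst7 overlapped.

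The immediate-early genes were lower with circRNA, against the lean of the table. This list holds the transcription factors and feedback regulators that are transcribed within minutes of a stimulus, and it is known to respond to tissue dissociation as well. Of 30 tested members 28 were lower with circRNA and 0 were above the median of all genes. The median was -0.22, with 5 lower (the share of all genes was 0.296%) and 0 higher at an unadjusted p under 0.05, and 9 (30.0%) were lower without overlap, against 2.65% of all genes. The list level was 4.74 and 4.94 with EGFP and 4.70, 4.62, 4.58 and 4.32 with circRNA, so that library 1 was just under the lower control and library 4 was the lowest. The 2 members above 0 were Dusp6 (0.06) and Mcl1 (0.01), and under each of the 3 rescaled settings all 30 were lower. With both circRNA libraries 2 and 3 left out all 30 were lower too, with a median of -0.30. With the replicate block 24 were lower and 6 higher, with a median of -0.15. In 5xFAD EGFP against wild type, with shared controls, 26 of 30 were higher and 11 were called higher, against 14.0% of all genes called in either direction.

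Fos (chr12:85473890-85477273), a subunit of the AP-1 factor, was at 92.1 and 106 FPKM with EGFP and 89.5, 72.3, 52.8 and 50.6 with circRNA. Fosb (chr7:19302696-19310051), a relative of Fos, was at 23.9 and 32.8 against 22.6, 15.9, 12.5 and 13.0 FPKM. Nr4a1 (chr15:101254269-101274795), an orphan nuclear receptor, was at 7.72 and 6.70 against 6.19, 4.61, 4.12 and 4.50 FPKM. In all 3 genes the circRNA libraries were below both controls, library 1 by the least. The wild type libraries ranged from 55.7 to 102 FPKM for Fos, with the lower circRNA values within that range or just under it. For Nr4a1 the wild type libraries were at 10.6, 7.74 and 7.52 FPKM, above all 4 circRNA libraries, and for Fosb at 22.5, 12.0 and 13.0 FPKM, overlapping the circRNA libraries. Their differences were -0.60 (SE 0.27), -0.81 (SE 0.29) and -0.50 (SE 0.17), with unadjusted p-values of 0.0433, 0.0151 and 0.0112. Egr1, a zinc finger factor, was at 40.4 and 61.0 against 47.4, 31.9, 26.2 and 23.2 FPKM, and Jun, the partner of Fos, at 216 and 286 against 232, 205, 188 and 150 FPKM. In both of these circRNA library 1 lay between the controls. How long each animal's tissue was handled is not given in the labels, and its part in these values was not tested.

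NF-kappaB and inflammatory cytokine genes lay near the median of all genes as deposited. Of 23 NF-kappaB subunits and regulators 15 were higher and 9 above the median of all genes, with a list median of 0.05. Its distance from the median of all genes was -0.03 as deposited and -0.03 to -0.05 under the 3 rescaled settings, where the list median itself turned negative. Without both circRNA libraries 2 and 3 the list median was -0.03, against 0.05 for all genes in that setting. At an unadjusted p under 0.05 there were 0. Groups did not overlap in 5 members that were lower (21.7%, against 2.65% of all genes) and 2 that were higher (8.70%, against 16.6%). Nfkbiz, an inducible nuclear regulator, was at 32.0 and 37.4 FPKM with EGFP and 31.7, 30.7, 27.1 and 23.3 with circRNA. Nfkbie, an inhibitor that holds NF-kappaB in the cytoplasm, was at 9.28 and 8.76 against 7.6, 7.76, 7.77 and 7.46 FPKM. Their differences were -0.29 (SE 0.18) and -0.21 (SE 0.13). Tnip1, another inhibitor of the pathway, differed by 0.11 (SE 0.07), the smallest p among the members above 0 (0.141).

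Of 30 inflammatory cytokine and chemokine genes, 17 were higher, 13 lower and 13 above the median of all genes, with a list median of 0.06. Its distance from the median of all genes was -0.02 as deposited and -0.04 to -0.06 under the 3 rescaled settings, where the list median itself turned negative. Without both circRNA libraries 2 and 3 the list median was -0.10, against 0.05 for all genes in that setting. The list level was 3.71 and 3.71 with EGFP and 3.67, 3.85, 3.80 and 3.50 with circRNA, on both sides of the controls. Tnf was at 11.5 and 15.6 FPKM against 12.1, 12.6, 11.1 and 9.82. Il1b, which encodes interleukin 1 beta, was at 14.3 and 10.1 against 9.10, 11.3, 13.5 and 8.82 FPKM. The chemokine Ccl3, a T cell and monocyte attractant, was at 212 and 273 against 246, 254, 223 and 170 FPKM, and Ccl4 at 168 and 187 against 167, 189, 164 and 117 FPKM. All 4 overlapped, and the 95% intervals of their differences, -0.88 to 0.44 for Tnf and -0.75 to 0.50 for Ccl3, span changes of either sign. Cxcl2, a neutrophil attractant, had the lowest difference of the list at -0.41 (SE 0.20), with 1.43 and 1.3 FPKM against 1.35, 0.851, 0.599 and 0.439. Il1a differed by -0.25 (SE 0.21) and Tnfsf13b, the B cell survival factor BAFF, by 0.16 (SE 0.15).

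**Figure D4:**
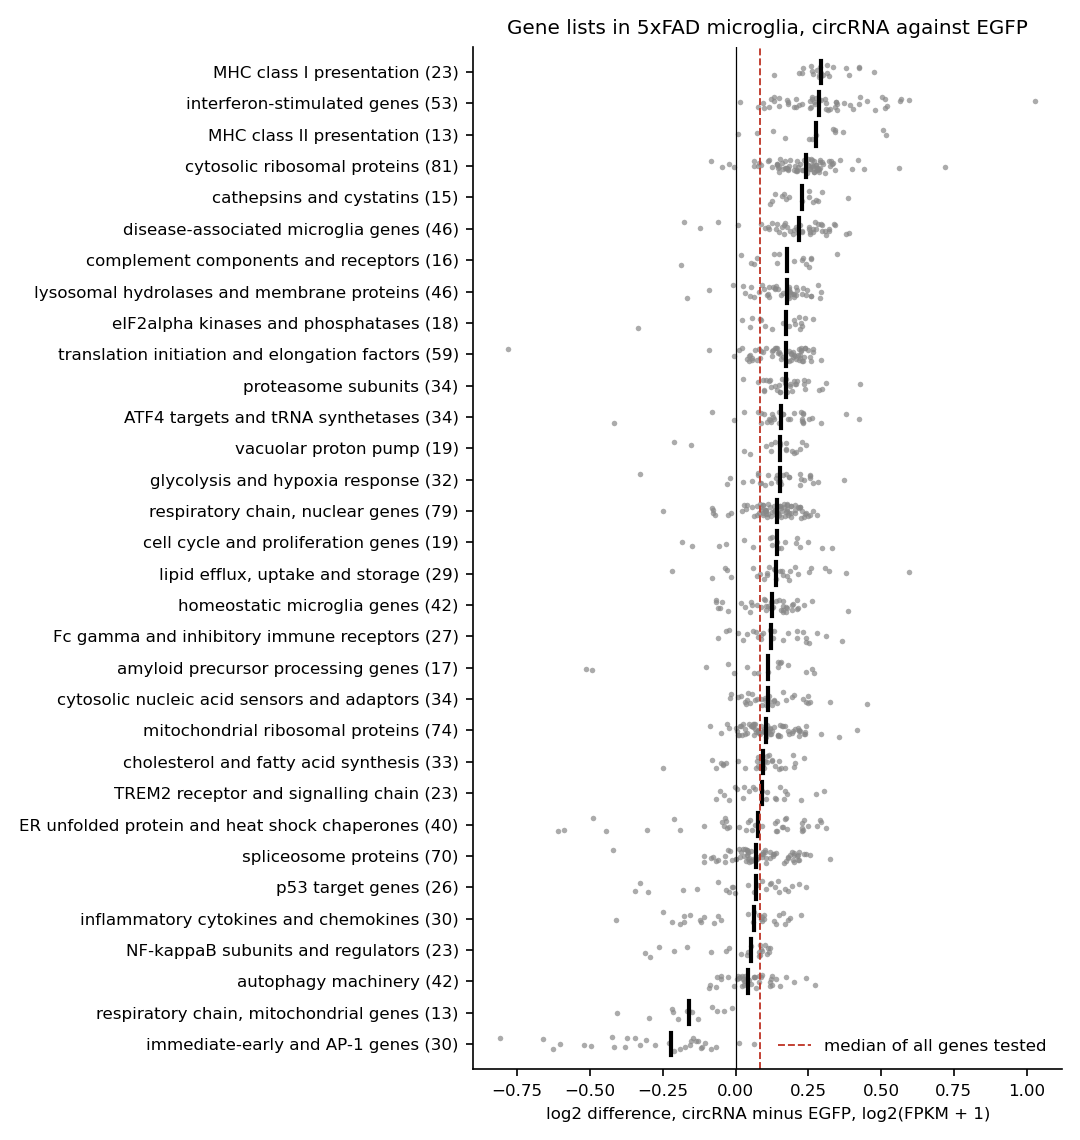
Log2 difference (circRNA minus EGFP) of every tested gene in 32 gene lists, 1 grey point per gene, with list medians as black bars, the number of genes in parentheses and the median of all 10817 genes as a dashed line. The MHC and interferon lists lie to the right of that line, most lists lie on it or slightly to the right, and the immediate-early genes and the mitochondrially encoded genes lie to the left of 0.

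Disease-associated microglia genes were slightly higher in 3 of the 4 circRNA libraries. Of 46 tested genes 43 were higher, 42 were above the median of all genes, the median was 0.22, and 9 (19.6%) did not overlap, close to the 16.6% of all genes. The list held 1 gene at an unadjusted p under 0.05 (the share of all genes was 4.54%), Ch25h. The list level was 5.67 and 5.64 with EGFP and 5.83, 5.90, 6.09 and 5.63 with circRNA, so that library 4 was at the control level. In 5xFAD EGFP against wild type the median of this list was 2.07 and 43 genes were called higher, against 14.0% of all genes called in either direction, which sets the scale of the difference with circRNA. Without both circRNA libraries 2 and 3 the median was 0.08, with 35 of 46 higher.

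Apoe, the lipid carrier and Alzheimer risk gene, was at 1684 and 2027 FPKM with EGFP and 2463, 2386, 2554 and 2214 with circRNA. The groups did not overlap, and the difference was 0.38 (SE 0.19), with an unadjusted p of 0.0729. Cst7, a cystatin that inhibits cathepsins, was at 491 and 487 against 599, 579, 783 and 481 FPKM. Ch25h, the enzyme of 25-hydroxycholesterol synthesis, was at 9.14 and 10.6 against 12.8, 11.0, 14.3 and 11.8 FPKM, and Dkk2, a Wnt regulator, at 4.09 and 3.91 against 4.96, 5.14, 7.44 and 3.94 FPKM. Library 3 was the highest of its group in each of these genes. In Spp1, which encodes osteopontin, it stood alone, at 241 FPKM against 89.8 to 122 in the other circRNA libraries and 99.5 and 98.2 with EGFP. Itgax, the integrin CD11c, was at 81.9 and 80.7 against 88.1, 90.2, 113 and 72.5 FPKM. Gpnmb, a lysosomal glycoprotein, was at 26.6 and 31.6 against 28.8, 31.1, 47.5 and 29.5 FPKM.

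Genes of homeostatic microglia, which mark the resting state, had no consistent shift against the background. Of 42 tested genes 36 were higher and 30 above the median of all genes, with a list median of 0.13, which became -0.002 under quantile normalization and -0.05 without both circRNA libraries 2 and 3, and 0 had an unadjusted p under 0.05. Tmem119, a surface marker of microglia, was at 206 and 167 FPKM with EGFP and 170, 248, 260 and 158 with circRNA. P2ry12, the ADP receptor of resting microglia, was at 244 and 241 against 261, 312, 279 and 211 FPKM, and Cx3cr1, the fractalkine receptor, at 323 and 314 against 331, 401, 430 and 292 FPKM. In all 3 genes circRNA libraries 2 and 3 were above the controls and library 4 was below them. Cst3, which encodes cystatin C, and Tgfbr2, a TGF-beta receptor, were also highest in circRNA library 3, at 3997 and 99.2 FPKM, and lowest of their group in library 4. The summed level of 16 microglial identity markers was 6566 and 5947 FPKM with EGFP and 6647, 8044, 8761 and 5802 with circRNA, high in the same 2 libraries. In bulk RNA, more cells of a type and more RNA per cell cannot be told apart.

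Receptors of the innate immune system and complement genes had few members that separated the groups. Of 23 genes of the TREM2 receptor and its signalling chain 18 were higher and 12 above the median of all genes, with a list median of 0.09. Under the 3 rescaled settings, where all genes moved down together, it was -0.01 to -0.03, against -0.008 to 0.01 for all genes. Trem2, the lipid-sensing receptor, was at 170 and 151 FPKM against 174, 197, 262 and 158. Of 27 Fc gamma and inhibitory receptors 24 were higher and 18 above the median of all genes, with a list median of 0.12, 1 higher (the share of all genes was 4.54%) at an unadjusted p under 0.05 and 5 (18.5%, against 16.6% of all genes) without overlap. Without both circRNA libraries 2 and 3 the TREM2 and Fc gamma list medians were -0.04 and 0.02. Of 16 complement genes 15 were higher and 11 above the median of all genes, with a list median of 0.18, which was 0.02 without both circRNA libraries 2 and 3, under the 0.05 of all genes in that setting. Of these 0 had an unadjusted p under 0.05 and 1 was higher without overlap (6.25%, against 16.6% of all genes). C1qa, a chain of the recognition protein C1q, was at 984 and 949 FPKM against 1081, 1344, 1358 and 910. C3, the central complement protein, was at 4.05 and 3.18 against 2.53, 6.34, 2.33 and 5.00 FPKM, high in libraries 2 and 4 as the class II genes were. Cfp, which encodes properdin, was the only complement gene below 0, at -0.19 (SE 0.16).

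Lysosomal genes were higher by a small amount, and by less without circRNA libraries 2 and 3, and few of them separated the groups. All 15 cathepsins and cystatins were higher and above the median of all genes, with a list median of 0.23. Of 46 lysosomal hydrolases and membrane proteins 43 were higher and 37 above that median, with a list median of 0.18. Without both circRNA libraries 2 and 3 that list had a median of 0.04, under the 0.05 of all genes in that setting, with 32 of 46 higher. Of 19 subunits of the vacuolar proton pump 17 were higher and 15 above it, with a list median of 0.15, which was 0.06 without EGFP library 2. None of the 3 lists held a gene with an unadjusted p under 0.05, and 1, 4 and 0 members were higher without overlap (6.67%, 8.70% and 0.00%), below the 16.6% of all genes in each. Under the 3 rescaled settings all 15 cathepsins and cystatins remained higher, with medians of 0.04 to 0.13, and 11 of 15 without both circRNA libraries 2 and 3. Ctsb, a cysteine protease, was at 420 and 373 FPKM with EGFP and 452, 501, 581 and 377 with circRNA, and library 4 lay between the controls. Lamp1, a major protein of the lysosomal membrane, was at 203 and 205 against 243, 257, 279 and 216 FPKM without overlap. Ctse, an aspartic protease, was at 6.85 and 7.06 against 8.27, 9.08, 10.0 and 7.34 FPKM, also without overlap. Their differences were 0.25 (SE 0.20), 0.28 (SE 0.15) and 0.28 (SE 0.15). Atp6v0e, a subunit of the proton pump, and Tmem106b, a lysosomal membrane protein linked to dementia, overlapped between groups, with differences of 0.24 (SE 0.12) and 0.18 (SE 0.10). Ids, which degrades heparan and dermatan sulfate, was at 19.4 and 16.9 against 16.7, 14.6, 16.0 and 16.9 FPKM, a difference of -0.17 (SE 0.10).

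Lipid genes were mixed. Of 29 genes of lipid efflux, uptake and storage 24 were higher and 22 above the median of all genes, with a list median of 0.14, and of 33 genes of cholesterol and fatty acid synthesis 26 were higher and 20 above it, with a list median of 0.09 that was near 0 under median-ratio scaling (0.008) and after rescaling to the same sum (-0.004). Hmgcs1, an early enzyme of cholesterol synthesis, was at 9.16 and 9.17 FPKM with EGFP and 11.7, 7.49, 11.5 and 9.50 with circRNA. Msmo1, a later enzyme of the pathway, was at 3.32 and 3.23 against 4.62, 3.23, 4.41 and 3.57 FPKM. Library 2 was the lowest circRNA library in both. Scd1, the desaturase abundant in oligodendrocytes, was at 25.6 and 22.9 against 26.6, 14.0, 15 and 29.7 FPKM, low in the same libraries as the oligodendrocyte markers. Pltp, a phospholipid transfer protein named after its values were seen, was at 19.8 and 14.1 against 21.9, 17.2, 36.4 and 32.4 FPKM, with the largest difference of the lipid lists at 0.60 (SE 0.32).

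Nuclear genes of the respiratory chain and of glycolysis were higher by amounts that rested on 1 control library. Of 79 nuclear respiratory chain genes 72 were higher and 63 above the median of all genes, with a list median of 0.14, 4 higher (the share of all genes was 4.54%) and 0 lower at an unadjusted p under 0.05, and 10 (12.7%) without overlap, below the 16.6% of all genes. Without EGFP library 2 the list median was 0.02, under the median of all genes in that setting (0.04), with 49 of 79 higher. Ndufb7, a subunit of complex I, was at 4.11 and 3.15 FPKM against 4.70, 4.15, 5.45 and 4.16. Of 32 genes of glycolysis and the hypoxia response 29 were higher and 25 above the median of all genes, with a list median of 0.15, which was 0.04 without EGFP library 2. Egln1, the oxygen sensor that marks HIF1A for destruction, was at 10.4 and 9.34 against 12.6, 11.9, 15.5 and 12.6 FPKM, a difference of 0.37 (SE 0.14). Ldha, which makes lactate, and Mif, a cytokine controlled by hypoxia, differed by 0.27 (SE 0.15) and 0.24 (SE 0.12).

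The 13 genes encoded by the mitochondrial genome were all lower, with a median of -0.16, and 0 of them had an unadjusted p under 0.05. Their list level was 10.2 and 10.2 with EGFP and 10.3, 9.72, 9.72 and 10.3 with circRNA, low only in libraries 2 and 3. Without those libraries 11 of the 13 were higher and the median was 0.15, and with library weights 10 of 13 were higher and the median was 0.03. It was -0.07 without circRNA library 3 and -0.35 with the replicate block. mt-Nd3, a subunit of complex I, was at 345 and 337 FPKM with EGFP and 377, 200, 203 and 283 with circRNA, and mt-Atp8, a subunit of the ATP synthase, at 1437 and 1206 against 1368, 911, 857 and 1231.

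Ribosomal protein genes were higher as a group in 3 of the 4 circRNA libraries. Of 81 cytosolic ribosomal protein genes 77 were higher, 73 above the median of all genes, with a median of 0.24, 15 higher (the share of all genes was 4.54%) and 0 lower at an unadjusted p under 0.05, and 22 (27.2%, against 16.6% of all genes) higher without overlap. Mean levels were 4.97 and 4.82 with EGFP and 5.07, 5.14, 5.35 and 4.93 with circRNA, so that library 4 lay between the controls. The median was 0.12 without EGFP library 2, 0.14 without circRNA library 3 and 0.09 without both circRNA libraries 2 and 3. Rps7 was at 33.4 and 30.0 FPKM against 37.7, 41.6, 51.9 and 41.0, and Rpl27a at 5.50 and 5.43 against 6.76, 6.4, 8.14 and 6.13 FPKM. Rpl17 (chromosome 18) had the largest difference of the list, 0.72 (SE 0.25), at 6.62 and 9.33 against 12.4, 11.2, 14.6 and 16.9 FPKM. Ribosomal protein genes have many processed copies in the genome, and these values are uncertain where reads were shared with them.

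Translation initiation and elongation factors were higher in 56 of 59 genes and above the median of all genes in 45, with a list median of 0.17 (0.09 without EGFP library 2 and 0.11 without circRNA library 3), 9 higher (the share of all genes was 4.54%) and 0 lower at an unadjusted p under 0.05 and 20 (33.9%, against 16.6% of all genes) higher without overlap. This list shares 12 genes with the eIF2alpha list. Eef1e1, an accessory protein of the tRNA synthetase complex, was at 1.25 and 1.11 FPKM against 1.40, 1.62, 1.73 and 1.49. The outlying member was Eef1a2, the elongation factor of neurons and muscle, at 20 and 15.2 against 10.6, 4.87, 9.89 and 16.6 FPKM, which followed the neuron markers. Of 74 mitochondrial ribosomal proteins 70 were higher, with a median of 0.10, near that of all genes, and 44 were above it. There were 7 higher (the share of all genes was 4.54%) and 0 lower at an unadjusted p under 0.05, and 17 (23%, against 16.6% of all genes) were higher without overlap. Mrpl40, a protein of the large mitochondrial subunit, was at 2.56 and 2.73 against 3.60, 3.44, 4.30 and 3.35 FPKM.

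The proteasome, which degrades ubiquitin-tagged proteins and makes the peptides shown on MHC class I, was higher in all 34 tested subunits and above the median of all genes in 32. The list median was 0.17, 6 subunits were higher (the share of all genes was 4.54%) and 0 lower at an unadjusted p under 0.05, and 21 (61.8%, against 16.6% of all genes) did not overlap between groups, the largest share of the 32 lists. Mean levels of the list were 3.16 and 3.03 with EGFP and 3.22, 3.25, 3.43 and 3.17 with circRNA, above both controls in all 4 libraries but by little in library 4. Between 30 and 31 of the 34 remained higher under the 3 rescaled settings, with medians of 0.07 to 0.09. The median was 0.11 without EGFP library 2 and 0.13 without circRNA library 3. Psma5 (chr3:108256926-108279974), an alpha ring subunit, was at 5.80 and 5.39 FPKM against 7.97, 6.96, 8.80 and 7.80. It did not overlap, and its difference of 0.43 (SE 0.10) had an unadjusted p of 0.000892 and a limma adjusted p of 0.739. Psmd13, a lid subunit of the regulatory particle, was at 5.67 and 4.94 against 6.15, 5.98, 6.78 and 6.27 FPKM, a difference of 0.21 (SE 0.07).

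Splicing and autophagy genes had medians at or under that of all genes. Of 70 spliceosome proteins 58 were higher and 33 were above the median of all genes, with a list median of 0.07 that was -0.01 under median-ratio scaling and -0.02 after rescaling to the same sum. Of these, 5 were higher (the share of all genes was 4.54%) and 0 lower at an unadjusted p under 0.05, and 14 (20%, against 16.6% of all genes) were higher without overlap. Snrpf, a core Sm protein, differed by 0.26 (SE 0.10), with overlap between groups. Of 42 autophagy genes 34 were higher, but 13 lay above the median of all genes, and the list median was 0.04. Its distance from the median of all genes was -0.04 as deposited and -0.04 to -0.05 under the 3 rescaled settings, where the list median turned negative. Tax1bp1, a receptor that brings ubiquitin-tagged cargo to autophagosomes, was at 6.84 and 7.01 FPKM against 7.84, 7.78, 8.25 and 7.91, a difference of 0.17 (SE 0.10).

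The stress lists downstream of eIF2alpha gave no common answer. Of 34 ATF4 targets and tRNA synthetases 31 were higher and 29 above the median of all genes, with a list median of 0.16 (0.08 without circRNA library 3 and 0.05 without both libraries 2 and 3, equal to that of all genes there). There were 9 (26.5%, against 16.6% of all genes) higher without overlap and 1 (the share of all genes was 4.54%) at an unadjusted p under 0.05, Tars, the threonyl-tRNA synthetase, with 3.42 and 3.31 FPKM against 3.78, 4.10, 4.73 and 3.92. Mean levels were 3.00 and 2.86 with EGFP and 3.00, 3.01, 3.34 and 2.97 with circRNA, and only library 3 stood clear of the controls. Atf4 itself was at 24.3 and 23.5 FPKM with EGFP and 22.9, 23.4, 28.0 and 21.3 with circRNA, a difference of -0.01 (95% interval -0.30 to 0.28). Ddit3, which encodes the death-promoting factor CHOP, was at 6.69 and 6.59 against 6.43, 7.2, 8.76 and 6.51 FPKM, a difference of 0.10 (95% interval -0.14 to 0.34). Atf3, a stress factor that also belongs to the immediate-early list, was lower, at 84.6 and 114 against 90.5, 76.7, 66.4 and 62.6 FPKM, a difference of -0.42 (SE 0.20).

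Chaperones of the unfolded protein and heat shock responses were higher in 26 of 40 genes and above the median of all genes in 20, with a list median of 0.08, equal to that of all genes. The list median was -0.002 after rescaling to the same sum and -0.004 without both circRNA libraries 2 and 3. Over the 17 alternatives it ran from -0.004 to 0.16. Hspa5, the BiP chaperone of the endoplasmic reticulum, was at 109 and 75.8 FPKM against 103, 91.2, 92.7 and 71.1. Dnajb1, a heat-inducible co-chaperone, was at 17.8 and 16.2 against 15.4, 12.8, 9.61 and 10.2 FPKM, and Hspa4, a constitutive chaperone of the HSP110 family, at 16.6 and 14.5 against 18.2, 18.8, 20.2 and 17.3 FPKM. These 2 genes did not overlap, in opposite directions, with differences of -0.49 (SE 0.25) and 0.25 (SE 0.11).

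Of 26 p53 targets 15 were higher and 12 above the median of all genes, with a list median of 0.07 that was -0.004 under median-ratio scaling and -0.01 after rescaling to the same sum. Cdkn1a, the cell cycle inhibitor p21, was at 4.6 and 4.64 FPKM against 4.07, 5.43, 4.8 and 4.22, a difference of -0.004 (95% interval -0.29 to 0.28). Gadd45b, a stress gene shared with the immediate-early list, was at 5.71 and 6.17 against 4.84, 4.49, 5.07 and 3.55 FPKM, a difference of -0.35 (SE 0.17). Of 19 cell cycle genes 15 were higher and 13 above the median of all genes, with a list median of 0.14 and 2 higher (the share of all genes was 4.54%) at an unadjusted p under 0.05. Under the 3 rescaled settings the list median was 0.04 to 0.05, and without both circRNA libraries 2 and 3 it was 0.02, under the 0.05 of all genes in that setting. Mcm4, part of the replication helicase, was at 2.37 and 2.20 FPKM against 2.90, 2.93, 3.47 and 2.89, a difference of 0.30 (SE 0.07) with an unadjusted p of 0.00146. Of 17 genes of amyloid precursor processing 12 were higher and 9 above the median of all genes, with a list median of 0.11. Sorl1, a sorting receptor for the precursor, differed by 0.14 (SE 0.07). Aplp1, a neuronal relative of the precursor, was at 60.6 and 55.0 FPKM against 61.0, 19.2, 37.6 and 58.3, low in circRNA libraries 2 and 3.

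Neuron markers were lower with circRNA and blood vessel markers higher, by more than any pathway list as deposited. All 13 tested neuron markers were lower, with a median of -0.63, and 9 (69.2%) did not overlap, against 2.65% of all genes. Without both circRNA libraries 2 and 3 the neuron median was -0.30, as was that of the immediate-early list. Summed over 22 listed markers they reached 148 and 125 FPKM with EGFP and 100, 60.2, 89.6 and 121 with circRNA, so all 4 circRNA libraries were below both controls, library 4 by little. Camk2a, a synaptic kinase, was at 51.0 and 40.1 FPKM against 30.6, 15.1, 25.4 and 40.1, the last just under the lower control. Celf4, a neuronal splicing factor, was at 5.18 and 4.2 against 3.21, 1.51, 2.50 and 3.59 FPKM. No neuron marker had an unadjusted p under 0.05, and their median SE was 0.33. That SE takes in the spread of all 13 libraries. The neuron list level was 2.98 in wild type library 3, against 1.87 and 1.665 in wild type libraries 1 and 2. The part of wild type library 3 in the SE was not tested. The 8 genes named for the lowest differences included genes known from neurons that are not in the marker list. Cplx1 (complexin, which clamps synaptic vesicles), Diras2 (a small GTPase of the brain) and Ptprn (a protein of dense-core vesicles) differed by -0.81, -0.67 and -0.59. Each was lowest in circRNA library 2, as was Vxn, a regulator of neural differentiation. Whether neuronal RNA carried along with the microglia or a change in the microglia accounts for them cannot be told apart here.

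All 22 tested endothelial and mural markers were higher, with a median of 0.44, 5 higher (the share of all genes was 4.54%) and 0 lower at an unadjusted p under 0.05 and 9 (40.9%, against 16.6% of all genes) without overlap. Their summed level was 271 and 193 FPKM with EGFP and 282, 266, 439 and 309 with circRNA, so that library 2 lay between the controls. Bsg, the basigin of the blood-brain barrier, was at 119 and 95.1 FPKM against 130, 130, 195 and 135. Tek, the angiopoietin receptor TIE2, was at 2.58 and 1.59 against 3.71, 2.60, 4.70 and 3.90 FPKM, and Abcb1a, the drug efflux pump of brain capillaries, at 4.78 and 3.50 against 6.35, 4.88, 10.2 and 7.54. Itm2a, a membrane protein high in brain endothelium, was at 4.04 and 4.12 against 6.35, 4.55, 11.6 and 8.30 FPKM. Tek, Abcb1a and Itm2a were 3 of the 8 genes named for the largest increases, with differences of 0.61, 0.66 and 0.71. Rgs5, a pericyte gene named after its values were seen, was at 8.32 and 5.67 against 10.5, 8.79, 11.3 and 10.4 FPKM. Without EGFP library 2 the median was 0.27 and 18 of 22 were higher.

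The remaining cell types followed single libraries. The 19 oligodendrocyte markers had a median of -0.55, with list levels of 4.70 and 4.74 for EGFP and 4.87, 3.48, 4.01 and 4.77 for circRNA. Without circRNA libraries 2 and 3 their median was 0.04 and 12 of 19 were higher. Astrocyte markers had a median of 0.18, with library 2 below both controls, and -0.10 without EGFP library 2. Haemoglobin RNA marked circRNA libraries 3 and 4: Hba-a1 was at 63.9 and 20.7 FPKM there and at 1.92 to 5.00 in the other 4 libraries. Ttr, the transthyretin of the choroid plexus, was at 769 and 560 FPKM with EGFP and 929, 350, 1018 and 2212 with circRNA, highest in library 4; it was named after its values were seen. Border macrophage markers had a median of -0.01, with 5 of 12 higher. The part of these cells in the pathway lists was not tested. In 1 alternative the mean log2 level of the endothelial, neuron, oligodendrocyte and astrocyte marker lists entered the model as a single covariate. These lists differed in opposite directions, and with the covariate the neuron and endothelial medians were still -0.58 and 0.46, so it did not remove the differences in these cells. That fit called 3 genes, all lower: Rasl10b at -0.72, Cplx1 at -0.76 and Diras2 at -0.63, with limma adjusted p-values of 0.00745, 0.00651 and 0.0335. Rasl10b was named for that call after its values were seen.

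Among single genes outside these lists, Eps8l1 (chr7:4460674-4480487), a relative of the actin regulator EPS8, had the lowest difference of the named genes at -1.26 (SE 0.33). It was at 4.59 and 4.86 FPKM with EGFP and 0.893, 2.65, 1.73 and 0.717 with circRNA, below both controls in all 4 libraries but with a spread of 0.717 to 2.65 among them. Iqcn (chr8:70703457-70717650), a calmodulin-binding protein known from sperm, was at 1.84 and 3.57 against 1.66, 0.640, 1.21 and 1.31 FPKM, a difference of -0.73 (SE 0.21). Vxn, the regulator of neural differentiation, was at 1.67 and 1.82 against 1.06, 0.413, 0.802 and 1.35 FPKM, a difference of -0.55 (SE 0.25). It was lowest in circRNA library 2, as the neuron markers were. Tbca (chr13:94788910-94842922), a chaperone of beta-tubulin, was at 9.36 and 13.8 against 17.4, 18.5, 22.9 and 14.7 FPKM, a difference of 0.63 (SE 0.19). Eps8l1, Iqcn, Vxn and Tbca each had a limma adjusted p of 0.739 and no overlap between groups.

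The precision of 4 libraries against 2 was similar for most genes. The median SE of a difference was 0.11 and the median half-width of the 95% interval 0.24. In 5xFAD EGFP against wild type, where 1514 genes passed, the median SE was 0.12. Both came from 1 fit with a shared spread per gene, so the numbers of libraries set their ratio in advance. Their closeness is therefore no check of the precision of these 6 libraries. With circRNA 6 genes differed by more than 1, 5 higher and 1 lower, and 3 of these without overlap. In 10361 genes (95.8%) the 95% interval lay within 1 log2 unit of 0 on both sides, and in 76.8% within 0.5. For 456 genes a change of 1 unit was not outside the interval. The median SE was 0.11 for genes at 1 to 5 FPKM and 0.20 for genes over 100 FPKM, but these are on the log2(FPKM + 1) scale, on which the added 1 compresses the differences and errors of low genes. With a pseudocount of 0.1 the median SE over all genes was 0.14. The widest intervals belonged to haemoglobin genes, such as Hba-a1 with an interval of -1.86 to 4.28. Ddx3y was at 7.06 to 8.39 FPKM in the 6 libraries compared, yet its interval was -1.33 to 1.51. Its SE of 0.65 rests also on the spread of libraries outside this comparison.

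**Figure D5:**
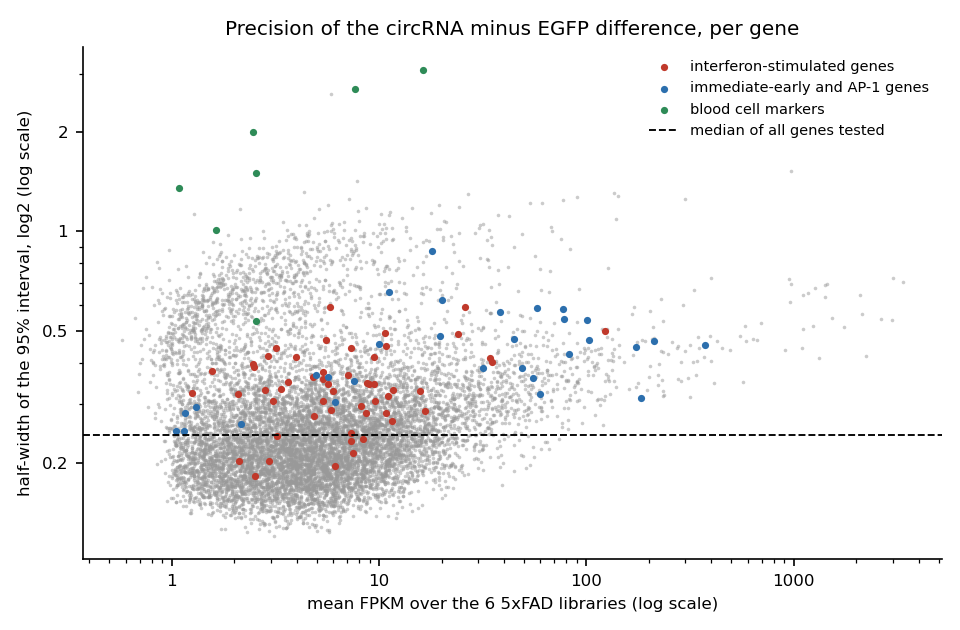
Half-width of the 95% interval of the circRNA minus EGFP difference against mean FPKM over the 6 libraries for each tested gene, both axes logarithmic. The dashed line is the median half-width of 0.24. Blood cell markers (green) lie mostly above 1, and immediate-early genes (blue) lie mostly above the median line.

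The design also limits any single comparison. There are 15 ways to choose 4 of 6 libraries, so an exact permutation test of 1 value cannot go below p = 0.0667, two-sided. The model reached 9 residual degrees of freedom only by taking the spread of the wild type and PKR knockout libraries as that of the 2 groups compared, and the 2 groups alone leave 4. That smaller fit called 0 genes as well, with 537 at an unadjusted p under 0.05 and a smallest limma adjusted p of 0.690. With 2 controls, each EGFP library decides the baseline: the median over all genes was 0.12 without EGFP library 1 and 0.04 without EGFP library 2. The circRNA libraries disagreed with each other on a scale similar to that of the contrast, since libraries 2 and 3 held the high end of the first component and library 1 was closest to the controls in the interferon and immediate-early lists. Leaving out libraries 2 and 3 together, a choice made after their position was seen, left 176 genes at an unadjusted p under 0.05 and 0 called.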

How the data were processed

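RNA of microglia was sequenced from 13 samples as ribosomal RNA-depleted, strand-specific total RNA, per the labels' protocols. The authors deposited 1 table of FPKM values per gene and sample, a unit that divides a gene's fragments by its length and by the depth of its library. The submitters' processing notes list Bowtie2 2.3.5, HISAT2 2.1.0, featureCounts 1.5.1 and the build mm10, with no order. The gene annotation and the strand setting of the counting are not given in the sources used here. The column count left unmapped to a sample was 0.

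FPKM are not counts, so limma 3.58.1 (R 4.3.3) was fitted to log2(FPKM + 1), with 4 groups in the model, empirical Bayes moderation and Benjamini-Hochberg adjustment over the 10817 genes whose mean reached 1 FPKM. Depth was recovered from FPKM values under 0.3, of which 91.7% of 27945 were whole multiples of 1 fragment within 0.02 fragments (4% by chance). The steps were tested on simulated data. Lists were described by counts and medians beside all genes. Summaries, promoters and figures used pandas 2.3.3, numpy 2.4.6 and matplotlib 3.10.9. Genes were named as a panel, as the 8 highest and 8 lowest differences among genes with an unadjusted p under 0.05 and no overlap (skipping predicted models), as the 2 members per list and direction with the smallest p, not all of which are printed, and as the 2 most abundant markers per cell type. The groups, lists and tests were chosen with earlier results of these data known. Alternatives changed the pseudocount (0.1), the filter (none, or 5 FPKM), the scaling, the samples in the fit, a replicate block, library weights (arrayWeights), a marker covariate and each library left out. Leaving out circRNA libraries 2 and 3 together was chosen after seeing the data. Some genes are not reported here.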

Additional observations from a re-analysis of the deposited data

Results flagged for a closer look

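In 4 of 150 groups of 4 circRNA values, the highest library stood apart from the other 3 by Dixon's criterion, where chance gives about 1 in 20, so the number is no more than chance gives. In all 4 it was circRNA library 3. The mean log2(FPKM + 1) of the ATF4 targets and tRNA synthetases was 3.34 there and 3.01 in the next library. Gpnmb, the lysosomal glycoprotein, was at 47.5 FPKM against 31.1 in the next. Mcm4, of the replication helicase, was at 3.47 against 2.93 FPKM, and Bsg, of the blood-brain barrier, at 195 against 135 FPKM. The same library had the highest share of fragments in listed genes, 60.7%, and the highest endothelial and blood cell marker levels of the 6 libraries, and their part in these values was not tested.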

How the results depend on the processing

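The count of 0 genes called between circRNA and EGFP held under 16 of 17 alternatives, the exception being the 3 genes lower with the marker covariate. With library weights 1023 genes had an unadjusted p under 0.05, with no filter 812 and with a pseudocount of 0.1 517. A replicate block left 0 called (smallest limma adjusted p 0.658) and 624 genes at an unadjusted p under 0.05, 379 higher and 245 lower. Labels do not say that equal replicate numbers are paired, and same-numbered libraries deviated together with r = -0.0244 and 0.174 across genes. Between 5xFAD EGFP and wild type, 1514 genes were called, against 862 at 5 FPKM or more (fewer genes tested), 3709 after rescaling to the same sum, 509 with the 2 groups alone, 2496 with the covariate and 566 to 1998 with 1 library left out. Over all named genes, 53 of 1806 alternative differences changed sign, each for a gene whose interval included 0, and the cause was not tested. With the same sum these were Dusp6 (-0.0513), Mcl1 (-0.104), C3 (-0.0313), Hmgcs1 (-0.00504) and Ddit3 (-0.00535). Median-ratio scaling reversed Dusp6 (-0.0368), Mcl1 (-0.0895) and C3 (-0.0216). Quantile normalization reversed Dusp6 (-0.0517), Mcl1 (-0.125), C3 (-0.0116), Tmem119 (-0.00128) and P2ry12 (-0.00254). Library weights reversed Dusp6 (-0.0972), C3 (-0.0906), Tmem119 (-0.0338) and Hspa5 (0.0303). The replicate block reversed Ccl3 (0.0945), Ccl4 (0.0412), C3 (-0.0243), Atf4 (0.0706) and Cdkn1a (0.0308). Without both circRNA libraries 2 and 3 the reversed genes were Dusp6 (-0.265), Mcl1 (-0.0299), Spp1 (-0.00902), Itgax (-0.0236), Tmem119 (-0.179), P2ry12 (-0.0468), Cx3cr1 (-0.0341), Scd1 (0.206), Ddit3 (-0.0331) and Aplp1 (0.0459). With 1 library left out, values ran from -0.117 to 0.245 for Dusp6, -0.0193 to 0.0682 for Mcl1, -0.409 to 0.0540 for Il1b, -0.305 to 0.0618 for Ccl3, -0.154 to 0.226 for C3, -0.0121 to 0.287 for Tmem119, -0.0829 to 0.0437 for Atf4, -0.298 to 0.222 for Hspa5 and -0.0697 to 0.0444 for Cdkn1a. Without an EGFP library the lone control is assumed to vary like the other groups. At 45.3 to 55.0 M fragments, counting error for a gene of 2 kb at 1 FPKM is 9.54% to 10.5%.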
